A study of Mus musculus with 6 samples.

Results

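The genes described here encode the kainate receptor subunits (Grik1 to Grik5), the delta receptor subunit Grid1, and the kainate receptor auxiliary proteins Neto1 and Neto2. They were chosen by symbol, and all 8 symbols were present once among the 23282 rows of each count file and passed the low-count filter, which 12831 rows passed. Hippocampal messenger RNA of C57BL/6 mice, 16 weeks old, had been read by QuantSeq, which sequences about 1 tag at a transcript's 3′ end. There were 3 libraries labelled PHF2 t/g and 3 labelled wild type (WT). PHF2 is a Jumonji-domain histone demethylase; the construct behind the label, its promoter and the number of animals per library were not stated in the labels. Because nothing says that the libraries came from separate animals, the p-values measure only the spread between these libraries, which may be technical.

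Kainate receptors are tetrameric cation channels opened by glutamate, and they act on both sides of the synapse. In hippocampus they are known for their role at mossy fibre synapses onto CA3 pyramidal neurons and in interneurons. GluK1, GluK2 and GluK3 (Grik1, Grik2, Grik3) can form channels by themselves, whereas the high-affinity subunits GluK4 and GluK5 (Grik4, Grik5) need one of these partners. Neto1 and Neto2 are transmembrane proteins that bind the receptor and slow its gating. GluD1 (Grid1) has the fold of a glutamate receptor but does not open to glutamate, and it joins the synapse through secreted cerebellins to presynaptic neurexins.

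The pore-lining stretch of the messenger RNA is shown because GluK1 and GluK2 transcripts are known to be edited there from a glutamine to an arginine codon. Each line gives 45 bases of the coding sequence of a GENCODE M21 transcript (GRCm38), 5′ to 3′. Capitals mark the codon of the editing site in Grik1 and Grik2 and the matching codon in the other genes.
Grik1: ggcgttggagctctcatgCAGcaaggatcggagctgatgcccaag
Grik2: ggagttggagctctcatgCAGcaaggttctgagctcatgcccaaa
Grik3: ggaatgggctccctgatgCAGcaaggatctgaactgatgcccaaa
Grik4: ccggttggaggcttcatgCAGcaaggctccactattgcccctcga
Grik5: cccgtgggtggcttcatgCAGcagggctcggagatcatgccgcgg
Grid1: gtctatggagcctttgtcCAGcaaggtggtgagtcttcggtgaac
All 6 reference sequences held the glutamine codon CAG there. Grik1 and Grik2 shared 40 of the 45 bases, Grik2 and Grik3 36, and Grik4 and Grik5 31, while Grid1 shared 19 to 25 with the kainate subunits. The 3′ tags do not reach this stretch, so editing was not measured. At the 3′ ends, where the tags lie, the genes were distinct: of all 25-base runs in the last 300 bases of their coding transcripts, 0 occurred in an annotated transcript of another gene. The symbols could therefore be told apart by their tags, but isoforms of 1 gene could not.

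Positions were taken from RefSeq (GRCm38.p6). Grik1 spans chromosome 16, 87895901 to 88290863, and Grik2 spans chromosome 10, 49093680 to 49790161. Grik3 lies on chromosome 4, 125490259 to 125714173, Grik4 on chromosome 9, 42518182 to 42945000, and Grik5 on chromosome 7, 25009849 to 25075694. Grid1 occupies chromosome 14, 34820003 to 35583387, and Neto2 occupies chromosome 8, 85636718 to 85700952. Grik2 had 8 annotated coding transcripts whose 3′ ends spread over 401 kb, and Grik1 had 7 that spread over 16.5 kb, so their rows can pool several ends. Grik3, Grik5 and Grid1 each had 1 annotated coding end. Only the last exon of Grik4 overlapped another annotated gene, the small RNA gene Gm24420 on the same strand, which shared none of the 25-base runs in the last 300 bases of Grik4.

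The promoters of Grik2 and Grik4 are shown because these genes had the largest difference in each direction. Windows from 250 bases before to 50 after an annotated start (RefSeq, GRCm38.p6) were read for 5 of the 8 genes, and CG dinucleotides are in capitals. The windows of Grik2, Grik3, Grik4 and Grik5 lie inside the gene spans above, so the 5′ end of the span is not in them. Neto1 was left out of this reading and of the positions above.
Grik2, chr10:49788705-49789004, minus strand: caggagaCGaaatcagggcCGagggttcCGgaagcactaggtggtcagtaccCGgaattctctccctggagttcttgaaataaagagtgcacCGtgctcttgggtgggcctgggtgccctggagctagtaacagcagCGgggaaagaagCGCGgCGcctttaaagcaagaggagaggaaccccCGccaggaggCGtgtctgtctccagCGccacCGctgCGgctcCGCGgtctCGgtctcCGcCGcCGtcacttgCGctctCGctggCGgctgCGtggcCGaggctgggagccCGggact
Grik4, chr9:42944322-42944621, minus strand: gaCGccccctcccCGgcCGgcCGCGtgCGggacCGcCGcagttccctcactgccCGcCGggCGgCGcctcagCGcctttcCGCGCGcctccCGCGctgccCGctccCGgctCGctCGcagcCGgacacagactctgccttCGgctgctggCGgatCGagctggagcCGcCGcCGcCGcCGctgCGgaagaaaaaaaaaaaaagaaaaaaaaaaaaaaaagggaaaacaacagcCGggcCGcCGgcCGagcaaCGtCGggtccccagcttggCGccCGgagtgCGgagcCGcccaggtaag
The Grik2 window held 26 CG dinucleotides (searched as CG, which reads the same on both strands) and the Grik4 window 42. As many as 26 were found in 16.9% of the 32851 promoter windows, and as many as 42 in 3.03%. The Grik3 window held 50 and the Grik5 window 10, against a median of 7 over all windows. Neto2 had a window with 36 and another with 0. No histone mark was measured here, so these counts describe the sequence alone.

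The libraries held 5512171 to 8844718 counts, of which 1106 to 1931 fell on the 8 genes, with 49 to 508 counts per gene and library. Levels are given as CPM, counts relative to the library total after TMM scaling, a factor that makes libraries of different composition comparable. WT replicate 2 and PHF2 t/g replicate 1 had stood apart in an earlier analysis of these files. WT replicate 2 did so here as well, with a chi-square per gene of 9.56 to 18.5 against the other libraries, where the other pairs gave 2.95 to 9.14. Of the markers listed for hippocampal neurons, those of CA1 summed to 503 to 612 CPM and those of CA2 and CA3 to 328 to 380 CPM per library. How particular these genes are to hippocampus was not tested. The largest part came from 1 gene each, Mpped1 (377 to 492 CPM) for CA1 and Pcp4 (169 to 217 CPM) for CA2 and CA3. The CA1 marker Fibcd1 ran from 7.87 to 40.8 CPM and was lowest in replicate 3 of both groups. The dentate granule cell markers (Prox1, Dsp, Lct, Tdo2) summed to only 3.05 to 16.5 CPM and were lowest in replicate 3 of both groups. Dsp had 0 counts in WT replicate 3. Striatum markers summed to 811 to 933 CPM in PHF2 t/g and 625 to 717 CPM in WT, and hypothalamus markers to 49.9 to 51.3 and 3.17 to 3.62 CPM. In PHF2 t/g nearly all of the hypothalamus sum came from Avp (26.7 to 28.2 CPM), Oxt (14.0 to 17.6) and Trh (4.68 to 8.03). Choroid plexus markers summed to 158 to 558 CPM in PHF2 t/g and 140 to 156 CPM in WT. In WT nearly all of the sum came from 1 gene, Enpp2 (131 to 146 CPM), which had 145 to 237 CPM in PHF2 t/g. The highest sum was in PHF2 t/g replicate 1, where Ttr had 292 CPM, against 1.28 to 4.46 CPM in the other libraries. The part of these markers in the values below was not tested.

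None of the 8 genes passed the test between PHF2 t/g and WT. At an adjusted p of 0.05 (edgeR quasi-likelihood, Benjamini-Hochberg over all tested genes), 0 of 8 passed, against 2.27% of all tested genes. Among all tested genes 0.779% were higher and 1.49% lower in PHF2 t/g. At an unadjusted p under 0.05 there was 1 of 8, Grik2, against 14.7% of all tested genes. DESeq2 and limma-voom also called 0 (DESeq2 gave an adjusted p for 4 of the 8), and neither had a member at an unadjusted p under 0.05. The libraries of the groups overlapped in each of the 8 genes, whereas they did not overlap in 20.6% of all tested genes. The fitted log2 fold change of PHF2 t/g over WT was above 0 for 6 genes and below 0 for 2. Its median was 0.064, beside 0.020 over all tested genes, of which 53.9% were above 0. The median fell to −0.056, with 3 genes above 0, when WT replicate 2 was left out. The 95% intervals below show how large a change these libraries still allow for each gene.

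**Figure D1:**
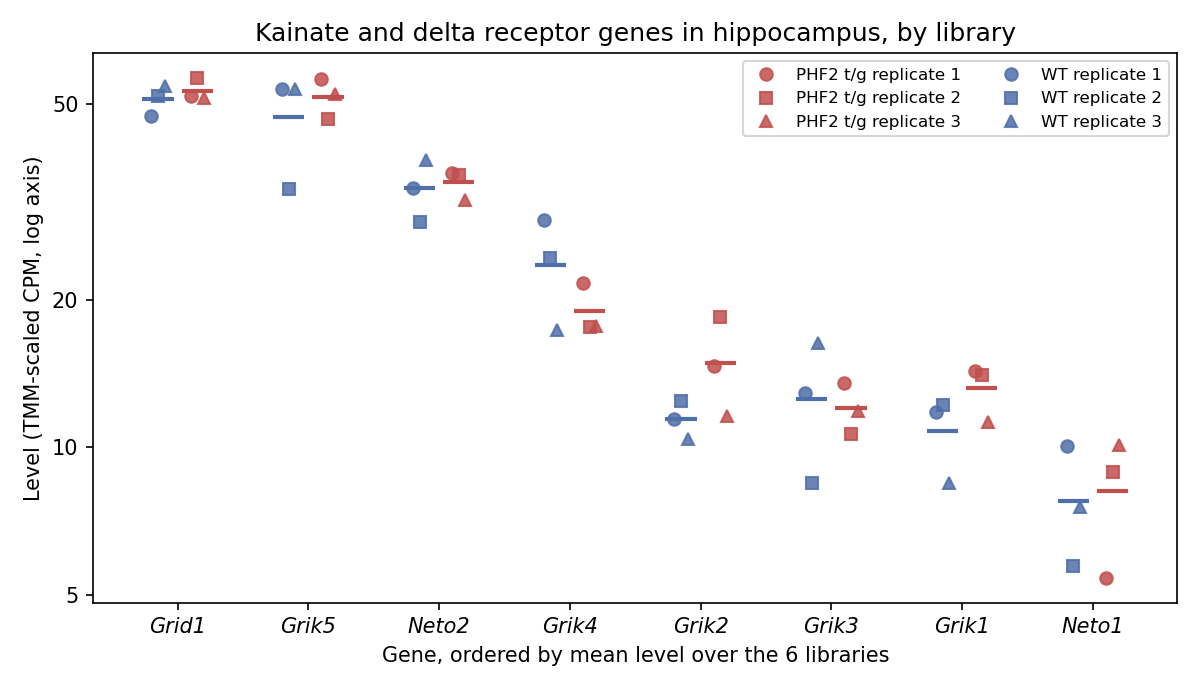
Level of each gene in each of the 6 libraries (TMM-scaled CPM, log axis). Circles, squares and triangles are replicates 1, 2 and 3, horizontal bars are group means, blue is WT and red is PHF2 t/g. Grid1 and Grik5 lie near 50 CPM and Neto1 below 11 CPM, and in every gene the colours overlap.

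Among the subunits that can form channels alone, Grik1 (GluK1, enriched in interneurons) was read at 11.8, 12.2 and 8.46 CPM in WT replicates 1 to 3 and at 14.3, 14.0 and 11.2 CPM in PHF2 t/g. The PHF2 t/g values reached higher, but replicate 3 of that group lay below 2 of the WT libraries. Replicate 3 was the lowest library of each group. The means were 10.8 ± 2.05 and 13.2 ± 1.69 CPM (SD, n = 3), with a log2 fold change of 0.29 (SE 0.179; 95% interval −0.085 to 0.67; edgeR adjusted p = 0.481). The log2 value was 0.13 without WT replicate 3 and 0.41 without WT replicate 2.

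Grik2, which encodes GluK2, the subunit behind most mossy fibre kainate currents, had 11.4, 12.4 and 10.4 CPM in WT and 14.6, 18.4 and 11.6 CPM in PHF2 t/g. Replicates 1 and 2 of PHF2 t/g were above all WT libraries and replicate 3 was not. As for Grik1, replicate 3 was the lowest library of each group. The means of 11.4 ± 1.01 and 14.9 ± 3.44 CPM gave the largest fold change of the 8 genes, a log2 of 0.38 (SE 0.179; 95% interval 0.0056 to 0.76), with an unadjusted p = 0.047 and an edgeR adjusted p = 0.33. Without PHF2 t/g replicate 2 the log2 value was 0.20, and without WT replicate 2 it was 0.46.

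Grik3 encodes GluK3, a subunit of low glutamate affinity. It was measured at 12.9, 8.44 and 16.3 CPM in WT and 13.5, 10.6 and 11.9 CPM in PHF2 t/g. The WT libraries enclosed the whole PHF2 t/g range. The log2 fold change of −0.040 (SE 0.212; 95% interval −0.49 to 0.41; edgeR adjusted p = 0.952) took either sign across the alternatives, from −0.39 to 0.20.

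Of the high-affinity subunits, Grik4 (GluK4, best known from CA3 pyramidal neurons) had 29.1, 24.3 and 17.4 CPM in WT and 21.6, 17.6 and 17.7 CPM in PHF2 t/g. WT replicates 1 and 2 stood above all PHF2 t/g libraries, and WT replicate 3 stood below them. The means were 23.6 ± 5.88 and 18.9 ± 2.30 CPM, a log2 fold change of −0.30 (SE 0.17; 95% interval −0.66 to 0.059; edgeR adjusted p = 0.434). The value was below 0 in each of the 16 alternatives, from −0.48 without WT replicate 3 to −0.15 without WT replicate 1, and passed in none of them. The CA2 and CA3 markers did not share 1 order of the libraries. Homer3 was lowest in replicate 3 of each group (35.5 CPM in WT and 30.7 in PHF2 t/g), whereas Pcp4 (217 and 204 CPM) and Coch (19.5 and 16.5 CPM) were highest there, and Rgs14 was lowest in WT replicate 2 (74.2 CPM). In bulk tissue, fewer cells of a type and less RNA per cell cannot be told apart.

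Grik5, which encodes GluK5, the most widely expressed high-affinity subunit, had 53.8, 33.7 and 53.8 CPM in WT and 56.3, 46.6 and 52.3 CPM in PHF2 t/g. A single library, WT replicate 2, was far below the others. With it the means were 47.1 ± 11.6 and 51.8 ± 4.86 CPM and the log2 fold change 0.15 (SE 0.169; 95% interval −0.23 to 0.52; edgeR adjusted p = 0.745). Without it the log2 fold change was −0.052. Of the 8 interneuron markers, Gad1 (52.1 CPM against 99.5 and 93.5) and Gad2 (53.6 against 59.1 and 60.1) were lowest among the WT libraries in replicate 2. In contrast, Slc32a1, Lhx6, Vip and Npy were highest there, and Sst and Pvalb lay between the other WT libraries.

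Grid1 was the steadiest of the 8 genes. It had 47.3, 51.9 and 54.5 CPM in WT and 52.0, 56.5 and 51.4 CPM in PHF2 t/g, so its 6 libraries lay within 47.3 to 56.5 CPM. The groups overlapped, at a log2 fold change of 0.054 (SE 0.102), and edgeR gave an adjusted p = 0.857. Its 95% interval, from 1.12-fold lower to 1.20-fold higher in PHF2 t/g, was the narrowest of the 8.

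Neto2 had 33.8, 28.7 and 38.5 CPM in WT and 36.2, 35.9 and 32.0 CPM in PHF2 t/g, with the PHF2 t/g libraries inside the WT range. Its log2 fold change was 0.049 (SE 0.125; 95% interval −0.21 to 0.31; edgeR adjusted p = 0.902). Neto1, which also binds NMDA receptors, had 10.1, 5.75 and 7.55 CPM in WT and 5.43, 8.93 and 10.1 CPM in PHF2 t/g. Both groups ran over almost the same range, and with 49 to 63 counts per library it was the least precisely measured member. Its log2 fold change was 0.074 (SE 0.258; 95% interval −0.47 to 0.62; edgeR adjusted p = 0.93), so a 1.54-fold rise or a 1.39-fold fall remains inside the interval.

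**Figure D2:**
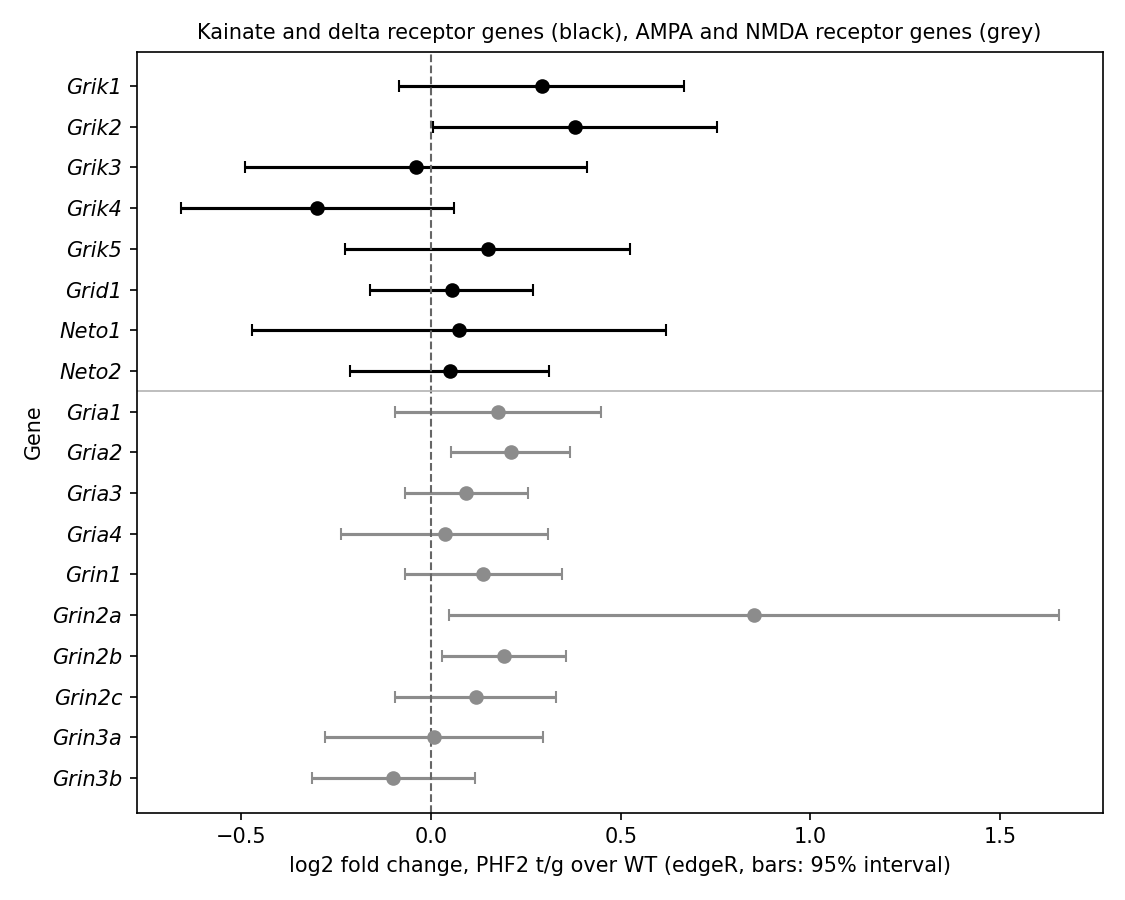
Log2 fold change of PHF2 t/g over WT (points) with its 95% interval (bars) from edgeR, for the 8 genes in black and for 10 tested AMPA and NMDA receptor genes in grey. The interval of Grik2 starts at 0.0056, those of the other 7 black genes include 0, and none passed an adjusted p of 0.05.

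In order of mean level over the 6 libraries, Grid1 (52.3 CPM) and Grik5 (49.4 CPM) came first, followed by Neto2 (34.2), Grik4 (21.3), Grik2 (13.1), Grik3 (12.3), Grik1 (11.999) and Neto1 (7.97). Since a 3′ tag counts a transcript once whatever its length, these levels can be set side by side, except that tags outside an annotated 3′ end are lost. Grid1 exceeded Grik5 in only 3 of 6 libraries, and Grik2 exceeded Grik3, and Grik3 exceeded Grik1, in 3 of 6. These neighbours do not differ beyond their spread. Grik5 was above Neto2, Neto2 above Grik4, and Grik1 above Neto1 in 6 of 6 libraries, and Grik4 was above Grik2 in 5 of 6. Grid1 was more abundant than 72.6% of the tested genes and Neto1 than 28.3%.

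The high-affinity subunits made up most of the kainate receptor tags. Grik4 and Grik5 together took 69.6%, 63.7% and 66.9% of the Grik1 to Grik5 counts in WT replicates 1 to 3, and 64.7%, 59.8% and 66.9% in PHF2 t/g. The groups overlapped, with means of 66.7% ± 2.998 and 63.8% ± 3.60 (SD, n = 3). The exact binomial 95% interval of a single library was about as wide as the range between the libraries of 1 group, for instance 56.3% to 63.4% in PHF2 t/g replicate 2, from 757 counts. These intervals cover counting error only.

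The mix within the high-affinity pair varied more in WT than in PHF2 t/g. Grik4 had 0.541, 0.721 and 0.323 counts per Grik5 count in the WT libraries, and 0.384, 0.377 and 0.337 in PHF2 t/g. WT replicates 1 and 2 lay above all PHF2 t/g libraries and WT replicate 3 lay below them. The high ratio of WT replicate 2 rests on its low Grik5 level as well as on Grik4. The difference in spread between the groups was not tested.

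**Figure D3:**
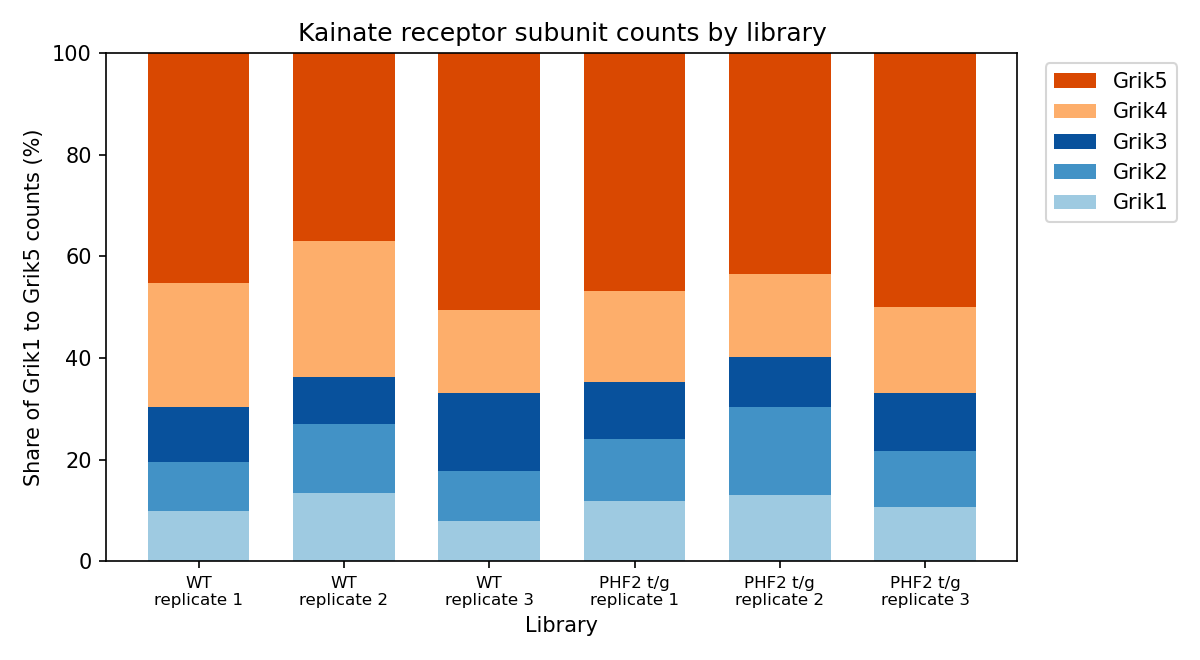
Share of each subunit (stacked colours, percent) in the Grik1 to Grik5 counts of each library. Orange tones are the high-affinity subunits, which take 59.8% to 69.6% of the bar, and Grik5 is the largest single part in every library.

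Neto2 tags outnumbered Neto1 tags in every library, by 3.36, 5 and 5.10 to 1 in WT and by 6.67, 4.02 and 3.16 to 1 in PHF2 t/g. The groups overlapped. Against the summed kainate subunits, the sum of Neto1 and Neto2 was 0.369 to 0.433 counts per count in WT and 0.346 to 0.417 in PHF2 t/g. Summed over the 5 subunits, kainate receptor tags amounted to 105 ± 14.0 CPM in WT and 111 ± 8.38 CPM in PHF2 t/g, also with overlapping libraries.

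The genes differed in how far their spread between libraries exceeded the counting error. For Grid1 the SD was 7.13% of the mean in WT, where counting alone gives 5.49%, and 5.31% in PHF2 t/g, where counting gives 5.09%. Grik5 was counted as deeply, yet its SD in WT was 24.7% against a counting error of 5.72%. Grik3 (31.4% against 11.2%) and Grik4 (24.95% against 8.18%) also varied in WT by more than their counting error, as did Neto2 (14.5% against 6.74%). In PHF2 t/g the SDs of Grik5, Grik3 and Grik4 were 9.39%, 12.1% and 12.2%. Neto1 was variable in both groups, at 27.9% in WT (counting error 14.1%) and 29.9% in PHF2 t/g (13.2%), and Grik2 had an SD of 23.1% in PHF2 t/g and 8.81% in WT. Among the 5806 tested genes with mean counts in the members' range, the median SD was 11.7% of the mean in WT and 9.26% in PHF2 t/g.

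**Figure D4:**
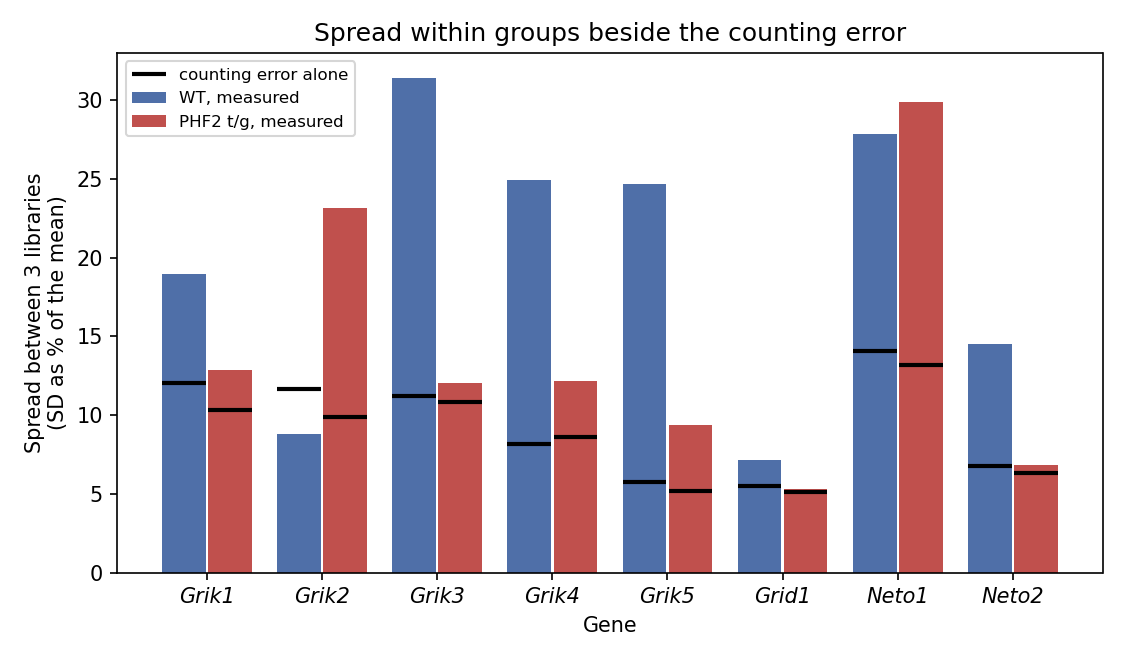
Spread between the 3 libraries of a group (bars, SD in percent of the mean) for each gene, with the spread that counting error alone would give as a black line. WT bars of Grik3, Grik4, Grik5 and Neto1 stand at 24.7% to 31.4%, well above their lines, and those of Grid1 stay near theirs.

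The genes that act with these receptors were read from the same fit, as a list of 24 with 21 tested. Of these, 1 fell, 0 rose and 20 did not pass, where 1.49% of all tested genes fell and 0.779% rose. Their median log2 fold change was −0.022, beside 0.020 over all genes. The gene that fell was Cbln1, a secreted cerebellin that links delta receptors to neurexins. It fell 1.91-fold, from 8.84 ± 1.35 CPM in WT to 4.53 ± 0.677 CPM in PHF2 t/g (log2 fold change −0.93, SE 0.224; edgeR adjusted p = 0.0341). The 3 WT libraries had 10.1, 7.39 and 9.06 CPM and the PHF2 t/g libraries 5.21, 4.54 and 3.85 CPM, with no overlap. The call ended without any 1 library other than WT replicate 2 (edgeR adjusted p up to 0.141), with library size alone, with limma-voom and without the robust fit, while the log2 value stayed between −1.18 and −0.83 in all 16 alternatives.

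The other cerebellins did not pass: Cbln2 was at 41.9 ± 3.39 CPM in WT and 40.6 ± 5.59 in PHF2 t/g, and Cbln4 at 1.48 ± 1.06 and 2.36 ± 1.07 CPM. Cbln3 had too few counts to be tested. The neurexin gene Nrxn3 (726 ± 27.5 CPM in WT and 706 ± 21.3 in PHF2 t/g) did not pass. Dlg4, the scaffold PSD-95, was at 1513 ± 153 CPM in WT and 1271 ± 79.6 in PHF2 t/g, without overlap (edgeR adjusted p = 0.141). Adarb1, an enzyme that edits the pore codon of Grik1 and Grik2, had 30.3 ± 3.08 CPM in WT and 34.9 ± 1.90 in PHF2 t/g and did not pass. The partners other than Cbln1 were named after their values were seen.

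The AMPA and NMDA receptors are the other ionotropic glutamate receptors. None of the 10 tested AMPA and NMDA receptor genes passed (Grin2d was not tested), against 2.27% of all tested genes. At an unadjusted edgeR p under 0.05 there were 3 of 10, against 14.7% of all tested genes. Of the 10 genes, 9 had a log2 fold change above 0, against 53.9% of all tested genes. Their median log2 value was 0.13, beside 0.020 over all tested genes. The 8 genes had 6 above 0 and a median of 0.064. With library size alone 1 of the 10 passed. The difference between the lists was not tested.

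Among all tested genes, those with the profile most like that of Grik2 over the 6 libraries, by the root mean square distance of centred log2 CPM, were Hrasls (0.0512), Foxq1 (0.0745) and Tsga10 (0.0782), where the median gene was at 0.321. For Grid1 they were Vps41 (0.0132), Phyh (0.0259) and Cap2 (0.0263). With 6 libraries and 12831 genes, near matches are easily found. Of the 8 interneuron markers Gad2 was higher, Sst was lower and 6 did not pass, and 0 of 5 CA2 and CA3 and 0 of 3 dentate markers passed. In oligodendrocytes 2 of 5 were lower, and in CA1 1 of 4 was higher. In endothelium 2 of 4, in leptomeninges 1 of 6 and in striatum 3 of 8 were higher. Among all tested genes 0.779% were higher and 1.49% lower. At an unadjusted edgeR p under 0.05 there were 7 of 8 in striatum, 5 of 6 in leptomeninges and 4 of 4 in endothelium. The share of all tested genes was 14.7%. Of these markers Adora2a (striatum) and Cldn5 (endothelium) were lower and the rest higher. The 3 tested hypothalamus markers (Avp, Oxt and Trh) were higher. The other 5 of that list lay below 1 CPM in every library, with overlapping groups, and were not tested. In the choroid plexus, astrocyte and microglia lists 0 of 4 tested markers passed, and 0 of 3 oligodendrocyte precursor markers passed. The 4 tested choroid plexus markers nevertheless all had a log2 fold change above 0, with a median of 1.66. Counts of marker lists were not related to the 8 genes by any test.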

How the data were processed

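Trizol RNA was turned into QuantSeq 3′ libraries, per the labels' protocols. Bowtie2, edgeR and the build mm10 are named in the submitters' processing notes. Versions, counting program, annotation, strand and filters were not given in the sources used here. Raw counts per gene symbol were deposited by the authors, 1 table per library, without normalization; 44 of the 23282 rows repeat a symbol and were kept.

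Groups and replicate numbers came from the titles. Rows were kept by filterByExpr, scaled by TMM and tested for genotype, two-sided, by the quasi-likelihood functions of edgeR 4.0.16 (R 4.3.3), with robust fitting. The threshold was an adjusted p of 0.05 (Benjamini-Hochberg, 12831 genes). The procedure was tested on simulated data. Every library pair differed beyond sampling noise (lowest chi-square per gene 2.95). Library totals were 5512171 to 8844718; Neto1, at 49 to 63 counts per library, had a counting error of 13.2% to 14.1%. Profiles used log2 CPM with a prior count of 2.

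The members and the lists were chosen with earlier results of these data known. Named genes are the 8 members, partners past the threshold (otherwise the 4 with the smallest p), and the 3 closest profiles for the member with the smallest p and the most abundant member. Some listed partners are not reported here by name. The CA2, CA3 and interneuron markers with values, the other partners and Gm24420 were named after their values or positions were seen. Alternatives were DESeq2 1.42.0, limma-voom (limma 3.58.1), edgeR with DESeq2's size factors or with library size alone, a fit that was not robust, no low-count filter, CPM of at least 1 in 3 libraries, a replicate block, leaving out each library, WT replicate 2 and PHF2 t/g replicate 1 both left out, removal of Rn45s, Lrrc17 and Akap5, and an adjusted p threshold of 0.10.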

Additional observations from a re-analysis of the deposited data

How the results depend on the processing

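The count of 0 members past the threshold held in all 17 alternatives run. Grik1 and Grik2 stayed above 0 and Grik4 below 0 in each of the 16 alternatives with a fold change. For Grik3, library size alone gave 0.061, limma-voom 0.037, and leaving out 1 library −0.28 to 0.20. With 1 library left out the log2 fold change of Grik5 ran from −0.052 to 0.26, of Grid1 from −0.0076 to 0.091, of Neto1 from −0.13 to 0.32 and of Neto2 from −0.061 to 0.15. With PHF2 t/g replicate 1 and WT replicate 2 both left out it was −0.12 for Grik5 and −0.095 for Neto2. The cause was not tested. Library size alone moved the median of all genes from 0.020 to 0.12, and relative to it the members' median was 0.043 there and 0.044 with TMM.

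Partner genes past the threshold numbered 0 with library size alone, limma-voom or the fit that was not robust, 2 without the low-count filter or at an adjusted p of 0.10, and 0 to 1 with 1 library left out. With DESeq2, Cbln1 had no adjusted p. The AMPA and NMDA genes past the threshold numbered 1 with library size alone. Over all genes 291 passed, 162 with limma-voom, 149 without the robust fit, 606 without the low-count filter, 140 with that pair of libraries left out, 547 at an adjusted p of 0.10, and 49 (without PHF2 t/g replicate 1) to 392 (without WT replicate 2) with 1 library left out. The difference in the Grik4 and Grik5 share ran from −4.46 to −0.935 percentage points with 1 library left out (−2.92 with all), and that in the ratio of Neto1 to Neto2 from −0.0318 to 0.0515 (0.0072 with all).

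The replicate numbers came from the titles, and whether same-numbered libraries share a factor is not known. The deviations of same-numbered libraries correlated across genes at −0.0044, 0.12 and 0.085 for replicates 1 to 3. Those of differently numbered libraries correlated at −0.13 to 0.067. Not every library correlated best with its own number. With the replicate number as a block, 299 genes and 0 members passed. The unadjusted edgeR p was then 0.038 for Grik2, 0.052 for Grik4 and 0.18 for Grik5 (0.047, 0.096 and 0.40 without the block). For Grik3 and Neto1 it rose. By number, Grik1 and Grik2 were higher in PHF2 t/g in every pair, and each of the other members went both ways. The depth of 49 to 132 counts for Neto1, Grik1, Grik2 and Grik3 limits what could be detected in them.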
